A study of Mus musculus with 3 samples.

Results

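The secondary and tertiary granule genes described here are Ltf, Camp, Ngp, Lcn2, Chil3, Mmp8, Mmp9, Cd177 and Fcnb, 9 of the 32285 genes in the files, each found by its symbol. They were followed in mouse bone marrow through 5 stages of the neutrophil lineage, and in T and NK cells, B cells and erythroid progenitors as a measure of free RNA. The droplet single-cell libraries (10x Genomics 3' version 3.1) were 2 of the Ep300-Znf384-V5-HA genotype (fusion) and 1 of the Wild type genotype, all from males aged 6 weeks. Marrow of femur and tibia was freed of red cells, and 5000 sorted live cells of the whole marrow were pooled with 5000 sorted live lineage-negative cells for each library. By its title the study asks how ZNF384 fusion proteins disturb blood lineages. The labels do not say what drives the fusion allele or whether each library is 1 animal.

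Neutrophils make their granules in waves as they mature. Primary granules with Mpo and Elane appear at the promyelocyte stage, secondary (specific) granules with lactoferrin at the myelocyte and metamyelocyte stages, and tertiary (gelatinase) granules with Mmp9 at the band stage. C/EBPε, encoded by Cebpe, is known as a main activator of the secondary granule genes, and PU.1 and GFI1 act in the same lineage. EP300 is a histone acetyltransferase and ZNF384 a zinc finger DNA-binding protein, and fusions of the pair occur in human acute leukemia.

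The cells kept numbered 7307 and 6894 in the fusion libraries and 7434 in wild type, with 97192347 and 111836603 UMIs (unique molecular identifiers, 1 per captured transcript) in the fusion files and 93262028 in the wild-type file. Between 39 and 43 barcodes of a library also occurred in another, at most 0.517% of its barcodes. Stages were set by marker genes that do not include the granule genes: S100a8 and S100a9 for the lineage, Elane, Mpo, Prtn3, Ctsg and Ms4a3 for promyelocytes, 8 mitosis genes such as Mki67 for dividing precursors, Retnlg, Cxcr2, Csf3r, Il1r2, Msrb1, Ccl6 and Mxd1 for band cells, and Il1b, Ccrl2, Cd14 and Ptgs2 for terminal cells. Non-dividing cells of the lineage below the promyelocyte and band thresholds are called immature, with no limit on the terminal markers. Terminal cells are over both the band and the terminal thresholds. Band cells were the most numerous, at 1944 and 1436 cells in fusion and 1411 in wild type, and promyelocytes the fewest, at 79 and 91 in fusion and 99 in wild type. Fusion replicate 1 stood apart in its S100a8 level, which took 8.48% of the UMIs of immature cells, against 15.4% in fusion replicate 2 and 16.7% in wild type. Of the targeted genes, Zfp384 (mouse ZNF384) was called higher in band and in terminal cells, and Ep300 passed the test in no stage. In band cells Zfp384 stood at 38.2 and 26.5 CPM (UMIs per 1000000 of the stage) in fusion against 13.9 CPM in wild type.

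The promoters of Mmp8 and Fcnb are printed first because these 2 genes changed in opposite directions, and those of Ngp and Ltf because they are secondary granule genes that did not pass the test. Sequences are from RefSeq (GRCm38.p6), from 250 bases before to 50 bases after the start site, on the gene's own strand. The windows are chr9:7558179-7558478 (plus strand) for Mmp8, chr2:28084829-28085128 (minus strand) for Fcnb, chr9:110419558-110419857 (plus strand) for Ngp and chr9:111019042-111019341 (plus strand) for Ltf. Capitals mark matches, on either strand, to TTGCNNAA (a C/EBP motif), GAGGAAGT (PU.1), AATCAC (GFI1) or AAAAAA (an A-run, searched because ZNF384 is known to bind A-rich DNA).
Mmp8: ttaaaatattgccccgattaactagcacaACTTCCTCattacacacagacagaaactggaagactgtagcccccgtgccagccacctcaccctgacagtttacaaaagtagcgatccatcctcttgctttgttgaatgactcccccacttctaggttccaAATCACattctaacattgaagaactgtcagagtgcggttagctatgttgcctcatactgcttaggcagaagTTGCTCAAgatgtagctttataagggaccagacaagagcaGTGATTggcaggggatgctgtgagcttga
Fcnb: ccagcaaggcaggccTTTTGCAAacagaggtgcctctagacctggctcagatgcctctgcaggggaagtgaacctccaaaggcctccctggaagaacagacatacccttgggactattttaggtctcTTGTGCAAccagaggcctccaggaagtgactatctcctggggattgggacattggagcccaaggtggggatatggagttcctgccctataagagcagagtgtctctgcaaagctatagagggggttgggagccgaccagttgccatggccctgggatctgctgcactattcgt
Ngp: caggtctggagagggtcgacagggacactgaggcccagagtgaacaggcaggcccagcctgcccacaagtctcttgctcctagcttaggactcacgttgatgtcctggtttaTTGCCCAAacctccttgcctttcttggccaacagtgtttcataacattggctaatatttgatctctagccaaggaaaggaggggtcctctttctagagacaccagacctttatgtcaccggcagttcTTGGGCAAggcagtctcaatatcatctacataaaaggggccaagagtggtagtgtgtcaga
Ltf: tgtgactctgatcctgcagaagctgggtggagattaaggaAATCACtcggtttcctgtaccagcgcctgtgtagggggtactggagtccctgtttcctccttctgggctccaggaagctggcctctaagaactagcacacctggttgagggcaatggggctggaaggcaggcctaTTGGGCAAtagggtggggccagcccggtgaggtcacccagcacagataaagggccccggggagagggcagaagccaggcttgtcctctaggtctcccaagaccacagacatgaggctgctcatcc
Promoters were found for 8 of the 9 genes, and Mmp9 was not among them. A C/EBP match lay in 5 of the 8 (Ltf, Ngp, Lcn2, Mmp8 and Fcnb), while 10.8% of all 32841 promoters held one. The PU.1 match was in Mmp8, against 3.20% of all promoters, and GFI1 matches were in Mmp8 and Ltf, against 10.4%. No A-run lay in any of the 8, against 19.2% of all promoters. In Mmp8 the C/EBP match TTGCTCAA spans bases -19 to -12 counted from the start site, and no matches of different motifs shared a base in the printed windows. A match describes letters in the window and is not evidence of binding.

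Each granule gene had its highest stage at the same point in all 3 libraries (the plot of levels by cell group). Fcnb, which encodes ficolin-B, a carbohydrate-binding protein of innate immunity, was highest in promyelocytes, and Camp (cathelicidin, an antimicrobial peptide precursor) and Chil3 (Ym1, a chitinase-like lectin) in dividing precursors. Ltf (lactoferrin, which binds iron), Ngp (neutrophilic granule protein), Lcn2 (lipocalin-2, which binds bacterial siderophores) and Cd177 (a surface glycoprotein) peaked in immature cells. Mmp8 (neutrophil collagenase) and Mmp9 (gelatinase B) peaked in band cells.

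**Figure D1:**
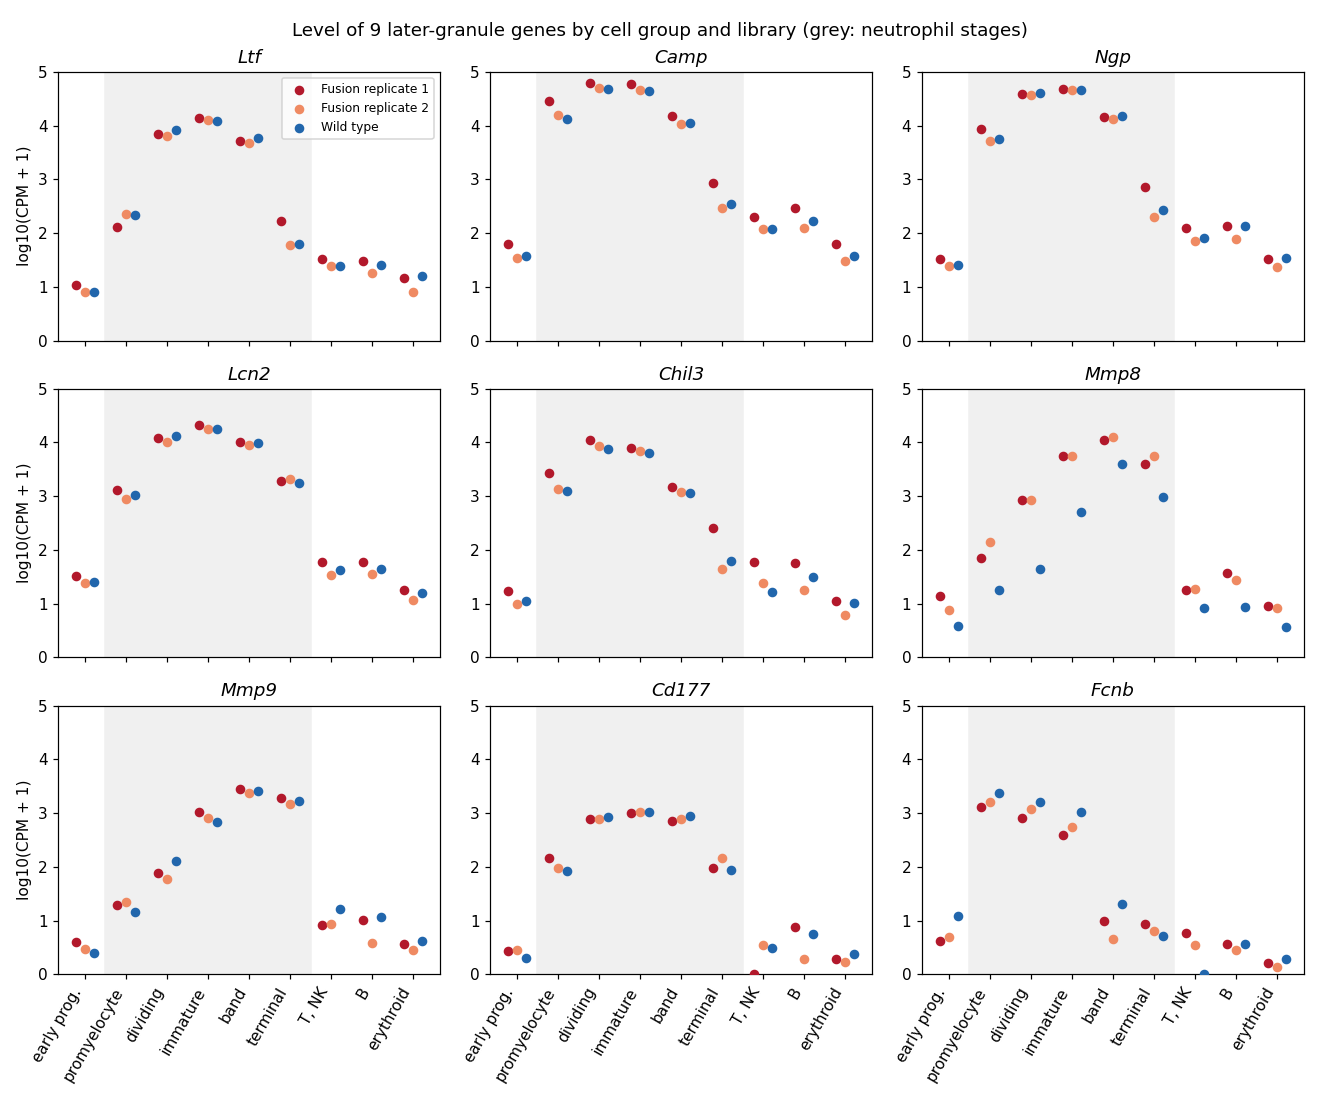
Level of each of the 9 genes, as log10 of CPM plus 1, in cell groups from early progenitors through the 5 neutrophil stages (grey) to T and NK, B and erythroid cells, with 1 point per library. The Mmp8 points of both fusion libraries lie above wild type in every stage, while those of Ltf, Ngp and Lcn2 lie close together from dividing precursors to band cells.

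These steps between stages were tested with library as a block (edgeR quasi-likelihood, Benjamini-Hochberg adjusted p under 0.05), with both genotypes in the fit. From promyelocytes to dividing precursors, 8 of 9 rose, where 49.1% of all genes tested changed, with the largest step in Ltf (log2 fold change 5.71 ± 0.21, SE) and no call for Fcnb (−0.10 ± 0.16). From dividing to immature cells, Ltf, Lcn2, Mmp8, Mmp9 and Cd177 rose and Fcnb fell (37.6% of all genes changed), with Mmp9 up by 3.47 ± 0.19 on the log2 scale and Mmp8 by 3.01 ± 0.30. This step did not separate dividing from immature cells for Camp (0.10 ± 0.17, adjusted p = 0.701), Chil3 (−0.14 ± 0.18, adjusted p = 0.59) or Ngp (0.45 ± 0.20, adjusted p = 0.0754), so their highest stage is the order of the CPM values and not a tested peak. From immature to band cells, Mmp8 and Mmp9 rose while Ltf, Camp, Ngp, Lcn2, Chil3 and Fcnb fell, against 51% of all genes changed. Fcnb then had the steepest fall, at −5.86 ± 0.21. Cd177 did not pass between immature and band cells (−0.31 ± 0.14, adjusted p = 0.0696). From band to terminal cells, 8 of 9 fell (17.7% of all genes changed), and Fcnb, already at 19.3 CPM or less in each library's band cells, did not pass the test.

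The granule genes together took 15.8% and 13.7% of all UMIs of immature cells in the fusion libraries and 12.9% in wild type. In T and NK cells, which should not express them, they took 0.0505% and 0.0298% in the fusion libraries and 0.0305% in wild type. The highest level of any of the 9 in T and NK, B or erythroid cells was at most 0.647% of that gene's peak in the same library, reached by Cd177 in fusion replicate 1. Early progenitors are cells over the promyelocyte threshold and under that for S100a8 with S100a9. They held Camp at 61.2 and 33.6 CPM in fusion and 36.1 CPM in wild type, below the 199 and 117 CPM in fusion T and NK cells and 119 CPM in wild-type ones. Early progenitors were deeper (medians of 20161 and 24264.5 UMIs in fusion and 25751 in wild type), nearer to erythroid progenitors, which held Camp at 62.0 and 29.5 CPM in fusion and 36.7 CPM in wild type. Mmp8 in early progenitors, at 13 and 6.62 CPM in fusion and 2.83 CPM in wild type, was likewise below the same libraries' T and NK cells. In erythroid progenitors Mmp8 stood at 8.01 and 7.34 CPM in fusion and 2.68 CPM in wild type, so early progenitors were above these in fusion replicate 1, below in fusion replicate 2 and close in wild type. Mmp8 outside the lineage had the same order as in neutrophils, with 36.7 and 26.3 CPM in fusion B cells and 7.84 CPM in wild-type ones. In early progenitors Fcnb stood at 3.20 and 3.88 CPM in fusion and 11.04 CPM in wild type, above the 0.613 and 0.346 CPM in fusion and 0.949 CPM in wild-type erythroid progenitors. T and NK cells had Fcnb at 4.92 and 2.55 CPM in fusion, from 2 and 1 UMIs, and 0 UMIs in wild type, where a count of 0 allows up to 3.11 CPM.

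Mmp8 was higher in both fusion libraries in all 5 stages, with the largest estimated fold change in dividing precursors. The difference of that effect from immature cells did not pass the test, and its difference from promyelocytes was not tested. The gene (ENSMUSG00000005800) lies on chromosome 9 from 7558456 to 7568485 on the plus strand (GRCm38). In promyelocytes it stood at 70.0 and 142 CPM in fusion and 17.2 CPM in wild type, carried by few cells: 16.5% and 12.1% of fusion and 7.07% of wild-type cells had an Mmp8 UMI, and the 90th percentile was 0.616 and 0.618 per 10000 in fusion and 0 in wild type. In dividing precursors it stood at 855 and 861 CPM in fusion and 43.7 CPM in wild type. Both fusion libraries were thus above wild type, and by far more than they differed from each other in the dividing stage. Immature cells held 5582 and 5598 CPM in fusion (5590 ± 11.2, SD, n = 2), against 498 CPM in wild type. Band cells held 11166 and 12414 CPM in fusion (11790 ± 882, SD, n = 2), against 3937 CPM in wild type. Terminal cells held 3948 and 5691 CPM in fusion, against 968 CPM in wild type. Clustered without the 9 genes, band cells fell into clusters split by genotype: of the 4 clusters led by band cells, 2 held 1091 and 864, and 961 and 713, fusion cells with 2 and 1 wild-type cells, and the others held 7 and 8, and 5 and 9, fusion cells with 906 and 844 wild-type cells. This split stands beside every band value given here, and its part in them was not tested. The Mmp8 groups overlapped in no stage, and the level in fusion immature cells was already above that in wild-type band cells. The share of all genes without overlap was not counted. Chil3, which passed the test in no stage, also had both fusion libraries above wild type from promyelocytes to band cells.

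Fusion over wild type, Mmp8 passed the edgeR quasi-likelihood test in every stage. The log2 fold change was 2.69 ± 0.39 (SE) in promyelocytes (Benjamini-Hochberg adjusted p = 0.00109). In dividing precursors it was 4.12 ± 0.25 (adjusted p = 0.000545), first of the 9003 genes tested by p and rank 12 from the highest fold change. It was 3.38 ± 0.26 in immature cells (adjusted p = 7.01e-05), 1.42 ± 0.24 in band cells (adjusted p = 1.19e-07) and 2.18 ± 0.35 in terminal cells (adjusted p = 7.59e-08). Of the 9 genes, Mmp8 was the 1 called higher in each stage, where 0.0722% of all genes were called higher in promyelocytes, 0.189% in dividing precursors, 0.877% in immature cells, 3.06% in band cells and 3.47% in terminal cells. The promyelocyte call was lost under 5 of 12 alternatives, with adjusted p from 0.525 to 0.999, and the fold there came to 1.90 on the log2 scale without fusion replicate 2. The terminal call was lost with another normalization (RLE size factors, adjusted p = 0.0908).

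**Figure D2:**
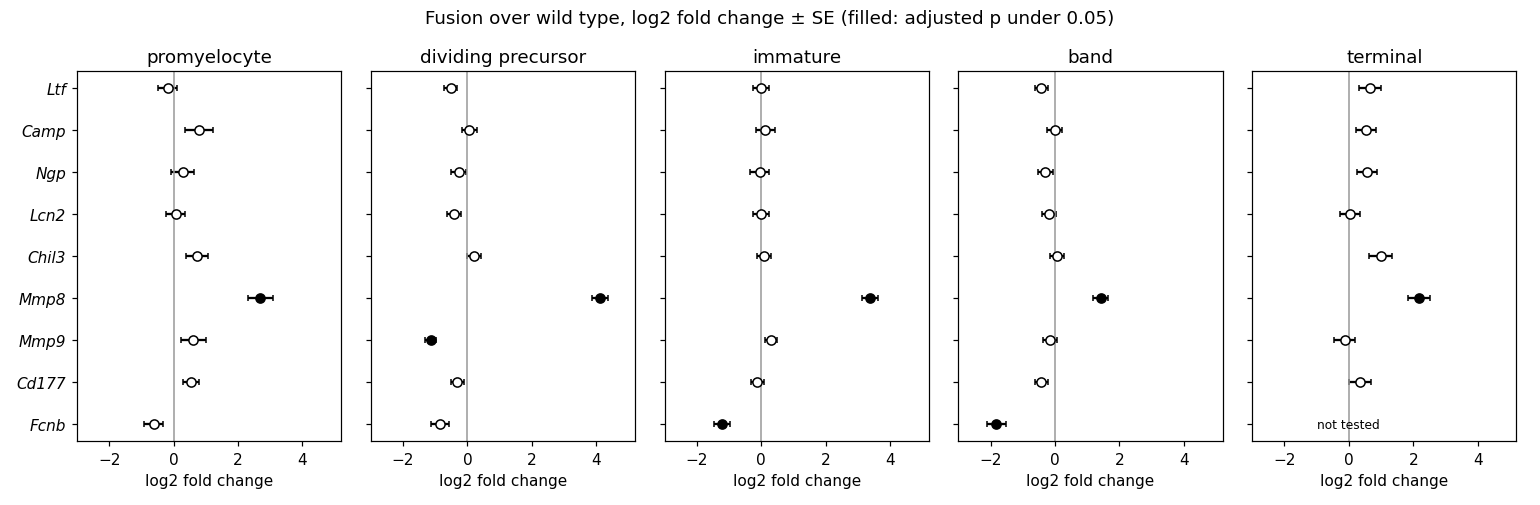
Log2 fold change of fusion over wild type with its SE for each gene in each of the 5 stages, filled where the adjusted p was under 0.05. Mmp8 lies between 1.42 and 4.12 and is filled in all 5 panels, Fcnb is filled below 0 in immature and band cells, and Mmp9 is filled below 0 in dividing precursors.

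The fusion effect on Mmp8 was not of 1 size along the lineage. It was smaller in band than in immature cells (a difference of −1.98 ± 0.25 on the log2 scale, edgeR interaction test, adjusted p = 2.47e-07, with 0.637% of all genes called) and smaller in terminal than in immature cells (−1.30 ± 0.26, adjusted p = 0.00164, 1.6% called). The differences of promyelocytes and of dividing precursors from immature cells did not pass, at −0.79 ± 0.44 (adjusted p = 0.745, 0.401% called) and 0.71 ± 0.30 (adjusted p = 0.664, 0.31% called).

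The share of cells with an Mmp8 UMI, after thinning each cell to 1000 UMIs, showed where the difference sat (the plot of shares). In dividing precursors 33.0% and 28.9% of fusion cells and 3.93% of wild-type cells held one, and the exact 95% intervals (Clopper-Pearson) ran from 27.7 to 38.7% and from 23.1 to 35.3% in fusion and from 1.81 to 7.33% in wild type. In immature cells the shares were 77.2% and 74.3% in fusion and 27.8% in wild type, and in terminal cells 75.8% and 73.8% in fusion and 41.3% in wild type. In all these stages the wild-type interval lay below both fusion intervals. In promyelocytes the shares were 5.06% and 6.59% in fusion and 2.02% in wild type, with overlapping intervals (1.40 to 12.5%, 2.46 to 13.8% and 0.246 to 7.11%). T and NK cells held 1.03% and 1.32% in fusion and 0.606% in wild type, with median depths of 3040 and 4180.5 UMIs in fusion and 4883 in wild type. Intervals cover counting error only. Before thinning, 52.5% and 50.9% of fusion and 10.9% of wild-type dividing precursors held an Mmp8 UMI.

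**Figure D3:**
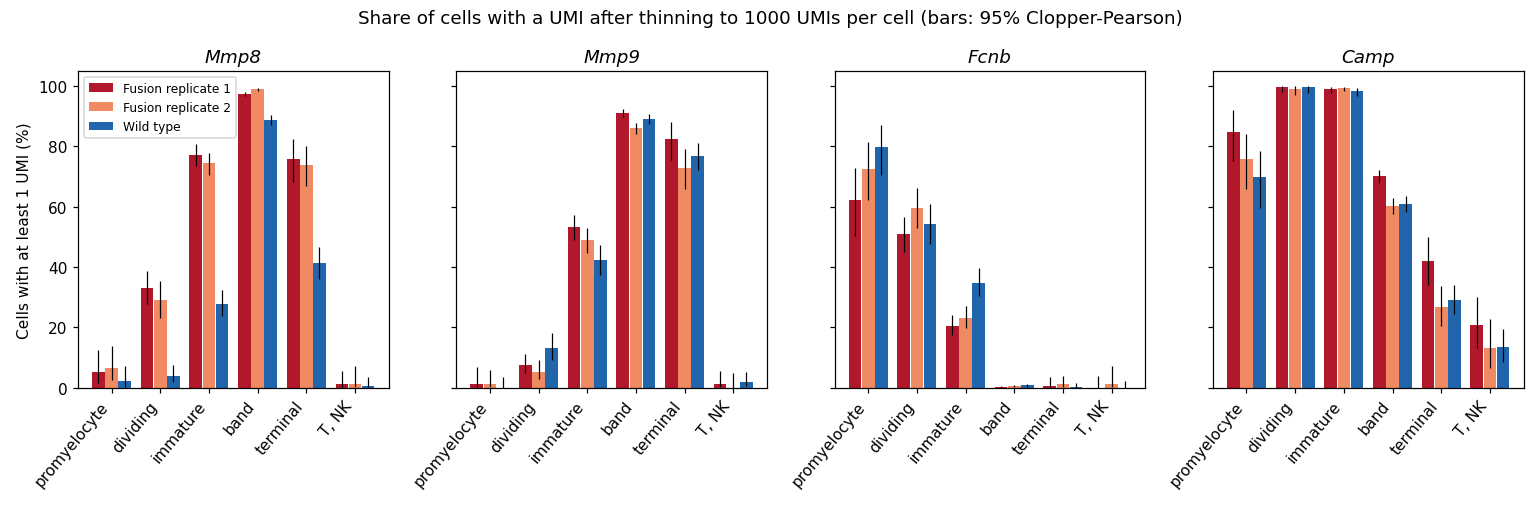
Share of cells with at least 1 UMI of Mmp8, Mmp9, Fcnb and Camp after thinning each cell to 1000 UMIs, by stage and in T and NK cells, with bars for each library and exact 95% intervals. Mmp8 bars of both fusion libraries stand above wild type from dividing precursors to terminal cells, while Camp reaches 13.2 to 20.6% of T and NK cells in all 3 libraries.

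Marker levels within a stage were not the same in the genotypes. The median band panel of band cells was 270 and 243 UMIs per 10000 UMIs of the cell in fusion and 350 in wild type, so non-dividing cells were also put into 7 bins of that panel. Monocyte markers summed in immature cells to 35.8 and 37.1 CPM in fusion and 73.6 CPM in wild type, with 3 of 6 tested called lower, and their part in the results was not tested. Mmp8 was above wild type in both fusion libraries in 7 of 7 bins. In the lowest bin, below 10 per 10000, it stood at 2826 and 2587 CPM in fusion and 90.0 CPM in wild type, and in the highest, above 400, at 11614 and 11844 CPM in fusion and 4095 CPM in wild type. In the bin from 20 to 40 it stood at 9589 and 11071 CPM in fusion and 1387 CPM in wild type. With equal numbers of cells matched on this panel, Mmp8 was higher by 3.62 ± 0.25 on the log2 scale in immature cells and by 1.44 ± 0.25 in band cells (edgeR adjusted p = 1.7e-39 and 0.0126).

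**Figure D4:**
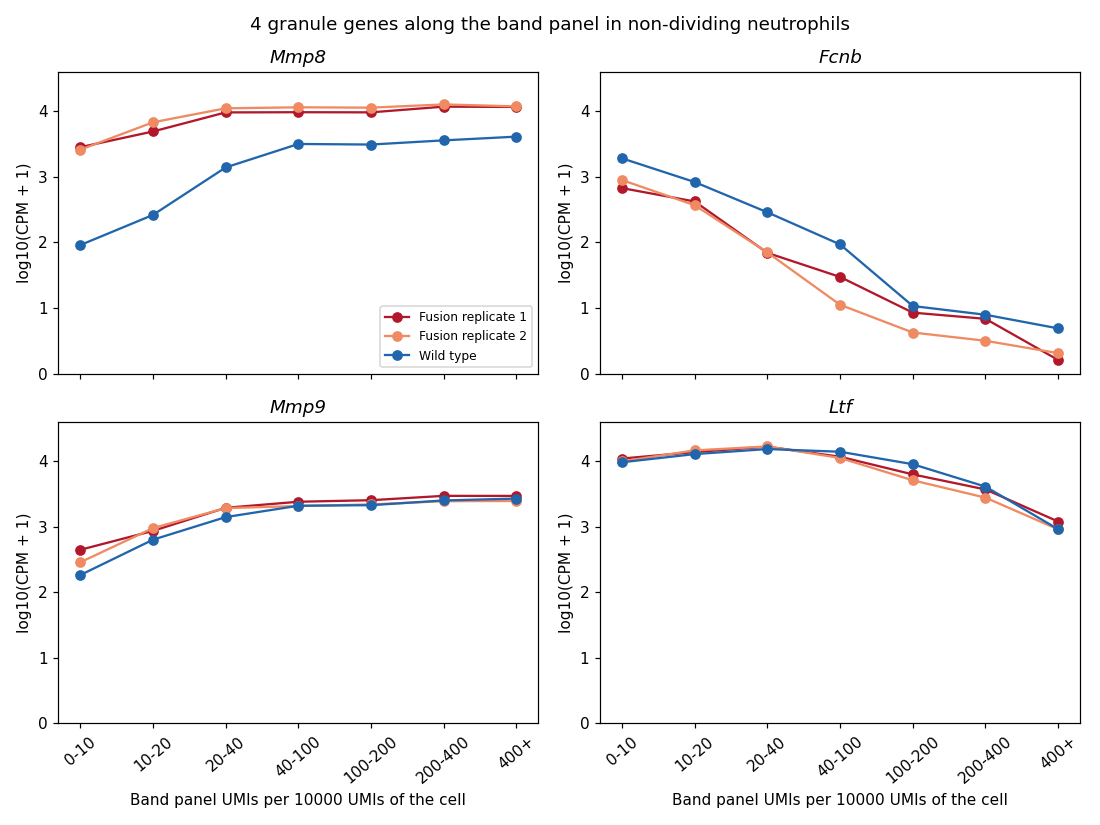
Level of Mmp8, Fcnb, Mmp9 and Ltf, as log10 of CPM plus 1, in non-dividing neutrophils ordered by the summed band panel per 10000 UMIs of the cell, 1 line per library. The Mmp8 lines of fusion run above wild type and the Fcnb lines below it in all 7 bins, and the Ltf lines cross.

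Fcnb was lower in both fusion libraries from promyelocytes to band cells and passed the test in immature and band cells. The gene (ENSMUSG00000026835) lies on chromosome 2 from 28076378 to 28084885 on the minus strand. Promyelocytes held 1306 and 1638 CPM in fusion and 2342 CPM in wild type. Dividing precursors held 817 and 1189 CPM in fusion, against 1622 CPM in wild type. Both fusion libraries lay below wild type, but neither stage passed the edgeR test (−0.62 ± 0.31, adjusted p = 0.913, and −0.85 ± 0.28, adjusted p = 0.351). Immature cells held 391 and 548 CPM in fusion and 1029 CPM in wild type, a log2 fold change of −1.22 ± 0.24 (adjusted p = 0.0311). Band cells held 8.84 and 3.49 CPM in fusion and 19.3 CPM in wild type, a log2 fold change of −1.83 ± 0.30 (adjusted p = 5.57e-08). Fcnb was the 1 of 9 called lower in each, where 0.8% and 4.97% of all genes were called lower. In promyelocytes and terminal cells none of those tested was called lower, against 0.0602% and 4.55% of all genes. The interaction of the band with the immature effect did not pass (−0.54 ± 0.33, adjusted p = 0.717), so a larger effect in band cells was not shown. Both calls were lost with DESeq2 (adjusted p = 0.0587 in immature and 0.121 in band cells) and with doublets kept (0.101 and 0.0866).

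The band value rests on 50 and 19 UMIs in fusion and 108 UMIs in wild type, and on 1.29% and 1.18% of fusion and 2.69% of wild-type band cells. As a measure of free RNA, B cells held Fcnb at 2.62 and 1.88 CPM in fusion and 2.61 CPM in wild type. T and NK cells held it at 4.92 and 2.55 CPM in fusion and 0 UMIs in wild type. Fusion band cells, at 8.84 and 3.49 CPM, were near these levels. The part of free RNA in the band value and in the higher bins of the band panel was not tested. In terminal cells Fcnb had 2 and 2 UMIs in fusion and 3 in wild type, too few for a test. After thinning, 20.5% and 23.2% of fusion and 34.8% of wild-type immature cells held an Fcnb UMI (intervals 17.3 to 24.04%, 19.8 to 26.9% and 30.2 to 39.6%). In dividing precursors the thinned shares overlapped, at 50.8% and 59.6% in fusion and 54.1% in wild type, while the 90th percentile of cells there was 16.04 and 24.2 UMIs per 10000 in fusion and 34.5 in wild type. Promyelocyte markers moved with Fcnb. Their summed level in immature cells was 345 and 445 CPM in fusion and 747 CPM in wild type, with 2 of 5 called lower, and in band cells 242 and 135 CPM in fusion and 406 CPM in wild type, with 5 of 5 called lower. Markers of other lineages were called lower in band cells too, at 2 of 2 tested for T and NK cells and 3 of 4 for B cells. The counts were 2 of 4 for basophils and 4 of 7 for monocytes, with 1 monocyte marker higher. Of 5 erythroid markers 0 were called, and 4.97% of all genes were called lower. The part of all these markers in the Fcnb result was not tested. Along the band panel Fcnb was below wild type in both fusion libraries in 7 of 7 bins, at 671 and 891 CPM in fusion and 1910 CPM in wild type in the lowest. The bins from 100 per 10000 up rest on few Fcnb UMIs. From 100 to 200 there were 10 and 5 in fusion and 12 in wild type. From 200 to 400 there were 11 and 5 in fusion and 15 in wild type, and above 400 there were 1 and 1 against 8. With cells matched on the band panel, the Fcnb log2 fold change was −1.30 ± 0.20 in immature cells (edgeR adjusted p = 1.46e-08).

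Mmp9 was lower in fusion in the dividing stage and did not pass the test elsewhere. The gene (ENSMUSG00000017737) lies on chromosome 2 from 164940780 to 164955850 on the plus strand. Dividing precursors held 75.2 and 58.0 CPM in fusion and 129 CPM in wild type, and both fusion libraries were below wild type. The log2 fold change was −1.14 ± 0.17 (edgeR adjusted p = 0.0256), where 0.389% of all genes were called lower. In immature cells the order was turned, at 1031 and 804 CPM in fusion and 688 CPM in wild type, though that difference did not pass (0.29 ± 0.18, adjusted p = 0.568). Relative to immature cells the fusion effect in dividing precursors differed by −1.46 ± 0.22 on the log2 scale (edgeR interaction test, adjusted p = 4.3e-05). Mmp8 and Mmp9 thus differed in the dividing stage while both peaked in band cells, where Mmp9 stood at 2795 and 2369 CPM in fusion and 2531 CPM in wild type. The wild-type value lay between the fusion values there, and also in terminal cells, at 1890 and 1498 CPM in fusion and 1661 CPM in wild type.

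The dividing-stage level of Mmp9 rests on 255 and 187 UMIs in fusion and 408 UMIs in wild type. After thinning, 7.41% and 5.26% of fusion cells and 13.1% of wild-type cells held one, and the interval of fusion replicate 1 (4.70 to 11%) overlapped that of wild type (9.02 to 18.2%). Retnlg, a band marker, was lower in the same cells (45.4 and 51.8 CPM in fusion, 133 CPM in wild type, edgeR adjusted p = 0.0103), and its part in the Mmp9 result was not tested. The Mmp9 call was lost with DESeq2 (adjusted p = 0.62) and with doublets kept (adjusted p = 0.262).

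Ltf, Camp, Ngp, Lcn2, Chil3 and Cd177 passed the test for genotype in no stage. Ltf (ENSMUSG00000032496, chromosome 9, 111019271 to 111042767, plus strand) stood in immature cells at 13775 and 12885 CPM in fusion and 12421 CPM in wild type, a log2 fold change of −0.01 ± 0.24 on normalized libraries (edgeR adjusted p = 0.988). In dividing precursors it stood at 6851 and 6410 CPM in fusion and 8415 CPM in wild type (−0.52 ± 0.21, adjusted p = 0.447). In band cells it stood at 5206 and 4806 CPM in fusion and 5945 CPM in wild type (−0.42 ± 0.21, adjusted p = 0.279). In both stages the fusion libraries lay below wild type. The thinned share of band cells with an Ltf UMI was 37.7% and 37.7% in fusion and 45.6% in wild type, with the wild-type interval (43.0 to 48.3%) above both others. Such intervals cover counting error within a library and not the spread between libraries. The median band cell had 0 Ltf UMIs in either fusion library and 2.87 per 10000 in wild type. Along the band panel, the fusion libraries were both above wild type in the 3 lowest bins and both below it in the next 3.

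Camp (ENSMUSG00000038357, chromosome 9, 109847379 to 109849617, minus strand) stood in dividing precursors at 61501 and 50128 CPM in fusion and 46993 CPM in wild type. In promyelocytes it stood at 29181 and 15955 CPM in fusion and 13149 CPM in wild type (0.79 ± 0.43 on the log2 scale, edgeR adjusted p = 0.927). Fusion replicate 1 was the high library in both, and fusion replicate 2 was nearer to wild type than to it. Chil3 (ENSMUSG00000040809, chromosome 3, 106147554 to 106167564, minus strand) had the same order in dividing precursors, at 10893 and 8769 CPM in fusion and 7503 CPM in wild type (0.20 ± 0.21, adjusted p = 0.812). In terminal cells Chil3 stood at 257 and 42.9 CPM in fusion and 62.3 CPM in wild type, so the groups overlapped, and the fit gave 0.98 ± 0.35 (adjusted p = 0.0581). That terminal value passed with equal numbers of cells per library (adjusted p = 0.0315) and with cells matched on the band panel (0.0328), fell to 0.37 on the log2 scale with a stricter cell filter and 0.42 with thinned cells, and turned to −0.57 without fusion replicate 1, against 1.71 without fusion replicate 2. T and NK cells held Chil3 at 59.1 and 22.96 CPM in fusion and 15.6 CPM in wild type. Of the Chil3 paralogs that could share its reads, Chil4 had at most 4 UMIs in any stage of a library.

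Ngp (ENSMUSG00000032484, chromosome 9, 110419747 to 110423012, plus strand) was close in all libraries in immature cells, at 48313 and 46143 CPM in fusion and 45017 CPM in wild type. Its log2 fold change there was −0.04 ± 0.29, and in the other stages it ran from −0.30 in band to 0.57 in terminal cells. Terminal cells held Ngp at 729 and 201 CPM in fusion and 269 CPM in wild type, so the groups overlapped, and the log2 fold change turned to −0.49 without fusion replicate 1 (1.16 without fusion replicate 2) and to −0.25 with doublets kept. Ltf and Camp in terminal cells likewise turned below 0 without fusion replicate 1, at −0.11 and −0.29. Lcn2 (ENSMUSG00000026822, chromosome 2, 32384633 to 32388252, minus strand) stood in immature cells at 20861 and 17497.5 CPM in fusion and 17734 CPM in wild type, with the wild-type value inside the fusion pair. In terminal cells Lcn2 stood at 1918 and 2115 CPM in fusion and 1780 CPM in wild type, a log2 fold change of 0.03 ± 0.31. Cd177 (ENSMUSG00000052212, chromosome 7, 24743983 to 24760311, minus strand) stood in immature cells at 1012 and 1058 CPM in fusion and 1044 CPM in wild type. In band cells Cd177 stood at 717 and 760 CPM in fusion and 886 CPM in wild type (−0.43 ± 0.20, adjusted p = 0.228), and both fusion libraries were below wild type. A difference that misses the threshold with 2 libraries against 1 does not show that levels were equal: the SE of these 6 genes ran from 0.19 to 0.43 on the log2 scale.

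Counted over stages, the genes called in either direction were 1 of 9 in promyelocytes (0.132% of all 8306 genes tested), 2 of 9 in dividing precursors (0.578% of 9003), 2 of 9 in immature cells (1.68% of 9127), 2 of 9 in band cells (8.04% of 9691) and 1 of 8 in terminal cells (8.02% of 5036). The median log2 fold change over the 9 was 0.54 in promyelocytes, −0.31 in dividing precursors, −0.01 in immature and −0.18 in band cells, and 0.55 over the 8 in terminal cells, while that of all genes tested was 0.00, −0.01, 0.00, 0.01 and 0.04. The terminal median was 0.00 with doublets kept, 0.03 with a stricter cell filter, 0.29 with stricter marker thresholds and 0.81 with cells matched on the band panel. In terminal cells 175 genes were called higher and 229 lower, a split that became 28 higher and 16 lower with RLE size factors.

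Among 28 other genes of the secondary and tertiary granules and secretory vesicles, between 1 and 5 passed the test in a stage. In promyelocytes 1 of 22 tested was higher and 0 lower, in dividing precursors 0 and 1 of 24, in immature cells 1 and 1 of 25, in band cells 1 and 3 of 25, and in terminal cells 2 and 3 of 22. Of all genes, 0.0722% were called higher and 0.0602% lower in promyelocytes, 0.189% and 0.389% in dividing precursors, 0.877% and 0.8% in immature cells, 3.06% and 4.97% in band cells, and 3.47% and 4.55% in terminal cells. The higher one from promyelocytes to terminal cells, dividing precursors excepted, was Chil1, which encodes a chitinase-like protein of the same family as Chil3. In band cells Chil1 stood at 937 and 856 CPM in fusion and 397 CPM in wild type (1.0 ± 0.22 on the log2 scale, edgeR adjusted p = 0.000113). In terminal cells it stood at 850 and 934 CPM in fusion and 200 CPM in wild type (2.01 ± 0.34, adjusted p = 3.89e-07). The other higher gene of terminal cells was Mmp25, a membrane-anchored matrix metalloproteinase, at 218 and 199 CPM in fusion and 55.2 CPM in wild type (1.76 ± 0.35, adjusted p = 2.34e-05). Orm1, an acute phase glycoprotein, was lower in dividing, immature and band cells, at 93.2 and 68.3 CPM in fusion and 205 CPM in wild type in immature cells (−1.47 ± 0.17, adjusted p = 0.00132). Itgb2l and Fpr2 were also lower in band cells, and Lyz2, Fpr1 and Fpr2 in terminal cells.

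The primary granule genes, 12 in the list, were called lower in 0 of 11 in promyelocytes, 1 of 11 in dividing precursors (Mpo), 3 of 11 in immature cells (Prtn3, Ms4a3 and Serpinb1a), 7 of 11 in band cells and 4 of 9 in terminal cells, and higher in none of these. The shares of all genes called lower were 0.0602%, 0.389%, 0.8%, 4.97% and 4.55% in the same order. Several of them define the promyelocyte threshold. The summed promyelocyte panel was also lower in fusion outside the lineage. It stood at 175 and 120 CPM in fusion B cells and 424 CPM in wild-type ones. In T and NK cells it stood at 170 and 99.5 CPM in fusion and 269 CPM in wild type. Erythroid progenitors held 42.9 and 30.9 CPM in fusion and 111 CPM in wild type. In band cells the panel stood at 242 and 135 CPM in fusion and 406 CPM in wild type. The part of free RNA in these calls was not tested. Of 14 regulators, Cebpe stood in immature cells at 755 and 631 CPM in fusion and 564 CPM in wild type (0.18 ± 0.18, edgeR adjusted p = 0.733) and was higher in terminal cells, at 125 and 72.5 CPM in fusion and 31.1 CPM in wild type (1.45 ± 0.37, adjusted p = 0.00251). Cebpa and Gfi1 were lower in band cells, at 6.36 and 6.44 CPM in fusion and 15.2 CPM in wild type for Cebpa (adjusted p = 0.000173), and at 1.94 and 0.736 CPM in fusion and 6.07 CPM in wild type for Gfi1 (adjusted p = 0.000634). In band cells 3 UMIs correspond to 0.530 and 0.552 CPM in fusion and 0.536 CPM in wild type, so the Gfi1 values rest on few UMIs. The part of free RNA in them was not tested. Spi1, which encodes PU.1, passed in no stage.

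Over 24 sums (8 cell groups in 3 libraries), the pattern of Mmp8 on the log2 scale was most like those of Dgkh (Pearson r = 0.956) and R3hdm4 (r = 0.947) among 2884 genes. Mmp9 was most like Mxd1 (r = 0.978), which is in the band panel, and Slfn4 (r = 0.972). Fcnb was most like 1810037I17Rik (r = 0.955) and Ero1l (r = 0.930), Camp like Ncam1 (r = 0.969) and Cebpe (r = 0.959), and Ngp like Itgb2l (r = 0.969). Among the 9, Camp and Chil3 (r = 0.994) and Camp and Ngp (r = 0.991) ran closest and Mmp9 and Fcnb least close (r = 0.211). These describe sums that share libraries and depth, and carry no test.

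No annotated gene overlapped any of the 9 in GENCODE M21. Within 100 kb of Mmp8, 1 gene, Mmp27, was tested in dividing, immature and band cells and passed in none. Of 9 other Mmp genes listed with it as a cluster, Mmp27 included, 2 were tested in band cells. Of these 2, 1 that is not Mmp27 was called higher, where 3.06% of all genes were. The median log2 fold change of the 2 was 3.58 and describes neither gene. Mmp27 stood at 0.84 ± 0.40 (edgeR adjusted p = 0.239), so the called gene lay above that median. Ctsa, near Mmp9, was higher in band and terminal cells (log2 fold changes 0.93 ± 0.24 and 1.23 ± 0.32, edgeR adjusted p = 0.00234 and 0.0026). F730016J06Rik, near Fcnb, was lower in immature and band cells (−1.34 ± 0.21 and −1.25 ± 0.29, adjusted p = 0.00761 and 0.000454), the same stages in which Fcnb was lower. No neighbour of Ltf, Camp, Ngp, Lcn2 or Cd177 that was tested passed in any stage.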

How the data were processed

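Per the file headers and values, the deposited files hold raw UMI counts per gene and barcode. Per the submitters' processing notes, Cell Ranger 5.0.1 (5.0.0 in the matrix headers) and bcl2fastq 2.20.0.422 were used with GRCm38. The authors deposited each library separately, with no barcode under 500 UMIs and no cell annotation.

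Barcodes with at least 1000 UMIs, 400 genes and no more than 10% mitochondrial UMIs entered, and doublets were removed with scrublet in scanpy 1.11.5 (231 and 319 in fusion, 191 in wild type). Stages were set by summed marker UMIs per 10000 UMIs of the cell: at least 100 for S100a8 with S100a9, 100 for promyelocytes, 20 for dividing cells, 40 for band and 10 for terminal cells. These thresholds were set on the pooled cells after seeing the data. Cells over a threshold of another lineage were left out, 77 and 82 in fusion and 106 in wild type of those over the S100 threshold. The members, gene lists and tests were chosen with earlier results of these data known.

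Counts were summed per library and stage. The edgeR 4.0.16 quasi-likelihood test (TMM, filterByExpr, genotype only, adjusted p under 0.05 over all genes of the stage) had 1 residual degree of freedom, so wild type was assumed to vary like fusion. The interaction and neighbouring-stage fits used all 5 stages with library as a term. P-values and SEs per stage rest largely on the spread between these samples pooled over all genes, and that spread may be technical. They need not show a gene's own spread between libraries. Chil3 in terminal cells had an SE of 0.35 with TMM and 0.83 with RLE size factors. The weight of the pooled spread differs between stages, so p-values should not be compared across stages. Genotype cannot be told apart from the single wild-type library. CPM are plain UMIs per 1000000 of the stage, while fold changes use TMM. All 9 genes are named, as are called genes of the fixed lists (at most 4 per list and stage by size) and the 2 most alike genes of each, though some are given only as counts. Neighbours and targeted genes were added. Scripts were tested on simulated counts. DESeq2 1.42.0 was an alternative.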

Additional observations from a re-analysis of the deposited data

Results flagged for a closer look

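The fusion effect differed between stages in 3 cases, by the edgeR test of the interaction. For Mmp9, the effect in dividing precursors minus that in immature cells was −1.46 on the log2 scale (adjusted p = 4.3e-05). For Mmp8, the effect in band minus that in immature cells was −1.98 (adjusted p = 2.47e-07). For Mmp8 in terminal minus immature cells it was −1.30 (adjusted p = 0.00164). Both fusion libraries were above wild type for Mmp8 in all 3 of these stages, so its differences are of size and not of direction. No interaction could be fitted without a library, since that leaves 0 residual degrees of freedom.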

How the results depend on the processing

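Over 572 values of a gene in a stage under an alternative, 556 were counted as unchanged, 12 lost a call, 4 gained one and 0 called values changed sign. Values without a test were judged on direction, and those of uncalled genes always counted as unchanged. In all, 46 uncalled values differed in sign. Only genes called in the main test could lose a call, so the 572 understate how often that happened. Mmp8 kept its call in 11 of 11 alternatives with a test in dividing, immature and band cells. It kept the call in 7 of 12 in promyelocytes and 9 of 10 in terminal cells. Fcnb kept its call in 9 of 11 in immature and in band cells, and Mmp9 in 9 of 11 in dividing precursors. Without one or the other fusion replicate (no test), Mmp8 ran from 1.90 to 3.08 on the log2 scale in promyelocytes, 4.0 to 4.21 in dividing, 3.27 to 3.48 in immature, 1.22 to 1.60 in band and 1.75 to 2.47 in terminal cells, and Fcnb from −1.61 to −0.91 in immature and −2.41 to −1.37 in band cells. Mmp9 in dividing precursors ran from −1.21 to −1.05.

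The number of genes called moved as follows. In promyelocytes (11) it was 3 with DESeq2, 26 with a stricter cell filter, 7 with stricter marker thresholds and 35 with cells matched on the band panel. It was 0 with edgeR with no gene filter, equal cells, thinned cells, doublets kept and Leiden clusters, where 438, 374, 58, 367 and 348 genes had an unadjusted p under 0.05, and 0 of the 9 genes were then called. In dividing precursors (52) it was 14 with DESeq2, 148 with RLE, 254 with no gene filter, 115 with library sizes without the granule and S100 genes, 88 with equal cells, 6 thinned, 87 with doublets, 81 with Leiden clusters and 84 with stricter thresholds. In immature cells (153) it was 45, 294, 380, 300, 278, 81 and 62 for the first 7 of these, and 376 matched. In band cells (779) it was 174 with DESeq2, 438 thinned, 326 with doublets and 299 matched. In terminal cells (404) it was 42 with DESeq2, 44 with RLE, 269 with equal cells, 223 thinned, 245 with stricter thresholds and 208 matched. Of the 9 genes, 1 was called in place of 2 with DESeq2 and with doublets kept in dividing, immature and band cells. In terminal cells 0 were called with RLE (707 genes had an unadjusted p under 0.05), 2 with equal cells (Mmp8 and Chil3) and 3 matched (Mmp8, Chil3 and Cd177). The causes were not tested. Fcnb passed in dividing precursors with no gene filter (adjusted p = 0.00338).

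Matching on the band panel, and joining S100-low cells to the promyelocytes, were chosen after seeing the data. The Leiden clusters gave no terminal group, so that alternative was not possible there. No paired analysis was possible because the labels give no replicate numbers and wild type has 1 library. At 35 wild-type UMIs of Mmp8 in promyelocytes and 3 of Fcnb in terminal cells, depth limits those values.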
